A study of Arabidopsis thaliana with 9 samples.

Results

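The comparison covers roots of wild-type Arabidopsis thaliana (Col-0) grown with little potassium, set against roots grown with the control supply. Of 37547 genes in the files, 19438 averaged 1 FPKM or more across the 6 libraries of these groups and form its members, and 19436 could be tested. FPKM divide the fragments of a gene by its transcript length and by a measure of library size, so levels can be compared between genes per unit of length. The control medium held KCl at 0.5 mM and the low-potassium medium at 0.025 mM, with 3 libraries per group. A set of 3 cesium libraries, with the control KCl and added CsCl (0.3 in the labels, where mL stands as its unit), is used only for contrast. All plants were wild type, of an age not stated in the labels, and were raised at 22 °C under 16 h light and 8 h dark on agarose medium with 1% sucrose, so the controls were sugar-fed as well. No label ties the biological replicates to separate cultures, and p-values therefore reflect the scatter of these samples alone, part of which may be technical.

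Potassium is the most abundant cation of plant cells, where it balances charge, sets turgor for cell expansion and activates enzymes of sugar and protein metabolism. Roots that run short of it raise high-affinity uptake, and shortage is known to alter growth, root hairs and the movement of sugars. The account below leaves the known potassium, nitrate and ABA genes aside after a check of the labels and goes through gene families and processes of the whole ranked list.

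HAK5, the high-affinity potassium transporter that low potassium induces, checks the labels. It measured 3.68, 4.33 and 4.58 FPKM in control and 142, 156 and 157 FPKM in low potassium. Every low-potassium library was far above every control library (log2 change 4.88 ± 0.088, limma adjusted p = 1.39e-07). All 17 root cell markers reached 1 FPKM, against 8 of 16 shoot and leaf markers, and the stomatal genes MUTE and FAMA were listed at 0 in all 6 libraries. Other shoot and leaf markers were abundant. In control, CAB1 measured 142.9 to 176.4 FPKM and RBCS1A 62.84 to 111.4 FPKM, so the markers do not show roots free of green-tissue transcripts. Correlations between libraries across all genes were 0.981 to 0.989 within groups and 0.933 to 0.951 between them. Each library summed to between 772355 and 845355 FPKM, with 19172 to 19362 genes at 1 FPKM or more. Absolute depth is unknown, so no counting error stands beside single values, and the steps between low FPKM put relative depth at 97.3% to 101% of control 1. The files give 6499 of the tested genes (33.4%) a region shared with other genes, so their values are less certain. Among the genes named below these are PGIP1, CT-BMY, AT1G52820, ASN1, CYP712A1, BCAT4, GSTF11, F3H, TT4, GL2, RHS19, CASP1, AT5G22500, FAR4, RWP1, DWF1, SQS2, AT3G24020, AT2G21100, EXLA1, XTH28, AGP13, CESA1, GH9A1, AT5G59240, RPL15, ATMG00080, TSO2, SYP111, CDKB2;1, ATK5, ATK2, DIN10, AT3G54500, PCL1, FKF1, BOA, HSP17.4, DREB2A, NRAMP1, bHLH38, KAI2, CYP711A1, AT2G40130, ATCG00810, PSBR, CAB1, NAC13, NAC042, BZIP61, CNGC1, CNGC6, CNGC9, CNGC15, TET3 and TET7. NRT2.2, CAB1, AT1G47395 and AT1G47400 have close copies with which reads could be shared.

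Nearly as many genes were higher as lower in low-potassium roots, and most changes were small. With limma on log2(FPKM + 1) and Benjamini-Hochberg adjustment over all genes, 4224 genes (21.7%) passed an adjusted p of 0.05 as higher and 4191 (21.6%) as lower. Both directions together made up 43.3%. A log2 change of at least 1 was reached by 652 (3.35%) and 566 (2.91%), and in 28.2% of all genes every low-potassium library was above every control library and in 28% below. The median over all genes was 0.0028 and the range from the 5th to the 95th percentile ran from -0.79 to 0.83. Log2 changes are given as low potassium minus control with their SE, n = 3 per group, and they understate the changes of low genes because of the pseudocount. "Rose" and "fell" are used for genes that passed.

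Families whose members were mostly lower were those of the cell wall, the ribosome and the kinesin motors. Those with many higher members were mostly transcription factors and signalling proteins. Of 92 families with at least 8 tested genes, the 8 with the highest share in each direction are described, and of 49 process lists likewise. Because they were ranked on these shares, the shares are a description. The shares over all genes, 21.7% higher and 21.6% lower, are the background against which they can be read.

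**Figure D1:**
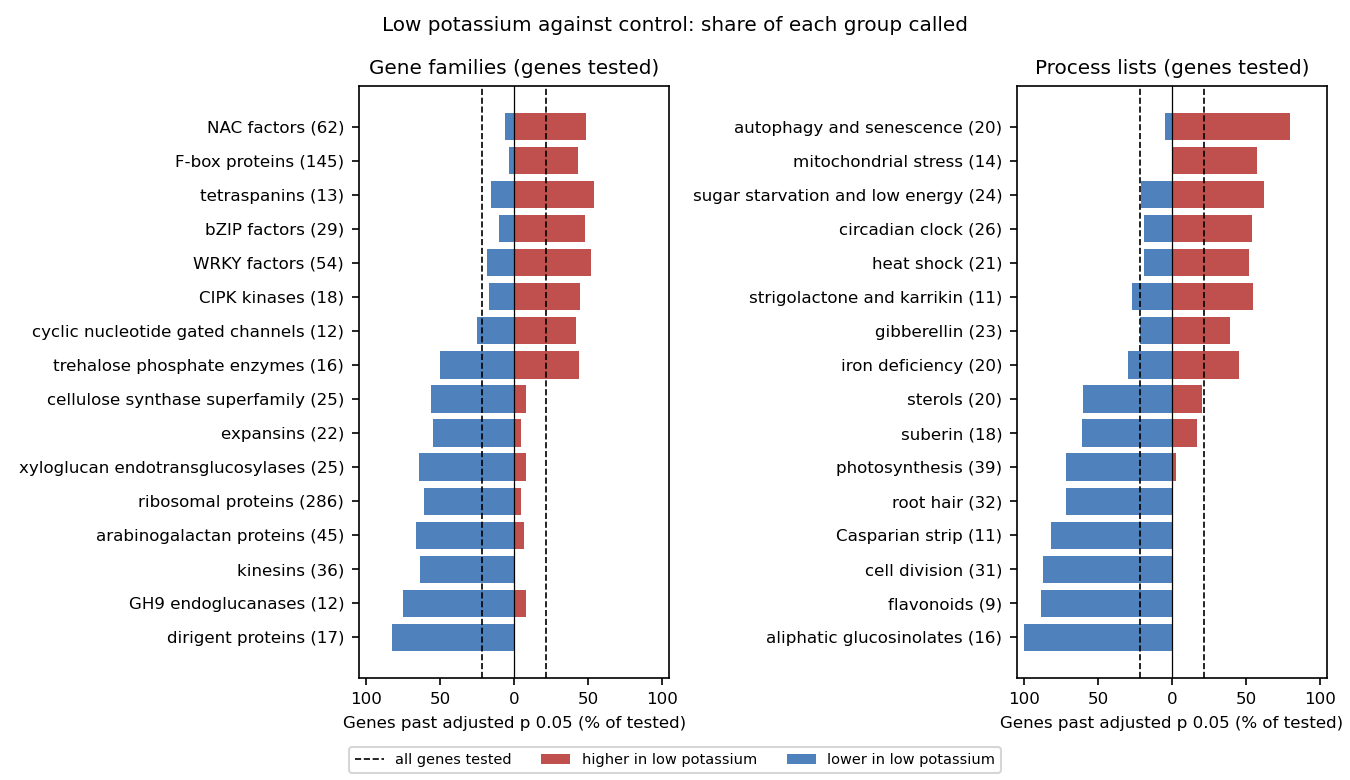
Share of the tested genes of each described family (left) and process list (right) that passed an adjusted p of 0.05, as percent of the tested genes, with higher genes to the right and lower genes to the left. The dashed lines mark the shares over all genes, 21.7% and 21.6%, and all 16 tested aliphatic glucosinolate genes lie on the lower side while 80% of the 20 autophagy and senescence genes lie on the higher side.

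Beside HAK5, the genes that rose most spanned transport, defence, the cell wall and chromatin. AT2G05510, which encodes a glycine-rich protein, measured 195, 168 and 183 FPKM in control and 3156, 5274 and 3727 FPKM in low potassium (4.44 ± 0.18). It was the most abundant of the leading genes, and its groups stood far apart. AT5G47000, a class III peroxidase of the kind that acts on wall phenolics, went from 0.0979, 0.227 and 0.266 to 20.4, 22.5 and 25.6 FPKM (4.31 ± 0.12). CHX17, a cation and proton exchanger of internal membranes, went from 8.76, 8.87 and 9.18 to 131, 131 and 114 FPKM (3.66 ± 0.077). The 3 libraries of each group were close together for both genes. HIS1-3, a linker histone known from drought, went from 23.7, 18.9 and 20.9 to 200.5, 281 and 243 FPKM (3.45 ± 0.13). On TAIR10, in the regions the files give, HAK5 (AT4G13420) lies on chromosome 4, 7796782 to 7802251, AT2G05510 on chromosome 2, 2015624 to 2016772, AT5G47000 on chromosome 5, 19068803 to 19070333, CHX17 (AT4G23700) on chromosome 4, 12342376 to 12346051 and HIS1-3 (AT2G18050) on chromosome 2, 7845923 to 7847031.

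Several leading genes belong to defence. TI1, a trypsin inhibitor, measured 11.9, 9.64 and 14.1 FPKM in control and 169.6, 170.5 and 151 FPKM in low potassium (3.69 ± 0.12). PGIP1, whose product blocks fungal pectin-degrading enzymes, went from 35.01, 48.9 and 31.4 to 467, 463 and 369 FPKM (3.48 ± 0.16). CYP71A12, a cytochrome P450 that turns indole-3-acetaldoxime toward camalexin and related compounds, went from 2.78, 5.16 and 4.11 to 64.5, 54.4 and 47.8 FPKM (3.51 ± 0.18). Groups without overlap were a condition for naming each of these. Further genes that rose were AT4G18280, related to glycine-rich wall proteins (3.85 ± 0.21), AT2G26695, with a zinc finger (3.79 ± 0.13), and AT5G38910, a germin-like cupin (3.49 ± 0.25). SQE6, of the squalene epoxidase family, changed by 3.49 ± 0.11, and AT3G21352, with no described product, by 3.41 ± 0.18. CT-BMY, a plastid beta-amylase that breaks down starch, was less even, at 0.666, 0.478 and 1.08 FPKM in control and 9.99, 31.1 and 13.4 FPKM in low potassium (3.32 ± 0.35). AT1G14642, with no described product, was listed at 0 in all control and cesium libraries and measured 21.2, 10.7 and 41.8 FPKM in low potassium, so no fold is given.

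Picked in the same way, the genes that fell most included transporters of nitrate, markers of phosphate shortage and enzymes of lipids and terpenoids. AT1G52820, a 2-oxoglutarate and iron dependent oxygenase, measured 53.7, 45.8 and 45.1 FPKM in control and 1.62, 1.34 and 1.79 FPKM in low potassium (-4.25 ± 0.10). FTM1, a stearoyl-acyl carrier protein desaturase, which puts the first double bond into fatty acids, went from 78.4, 79.8 and 61.2 to 3.83, 3.63 and 3.31 FPKM (-4.01 ± 0.11). ASN1, an asparagine synthetase that stores nitrogen in the dark, went from 35.4, 32.1 and 34.7 to 2.85, 2.93 and 1.88 FPKM (-3.32 ± 0.13). All 3 genes held the low-potassium libraries within a narrow band far below control. LTP5, a lipid transfer protein of the wall, went from 129.6, 94.6 and 91.0 to 15.1, 10.3 and 10.9 FPKM (-3.02 ± 0.17), with control 1 the highest. FTM1 (AT1G43800) lies on chromosome 1, 16577521 to 16579722 and LTP5 (AT3G51600) on chromosome 3, 19138338 to 19139423.

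Genes at or near 0 in low potassium included AT4G33720, of the family of pathogenesis-related secreted proteins, at 15.6, 18.7 and 16.9 FPKM in control and 0.128, 0 and 0.0619 FPKM in low potassium. IPS1, a noncoding RNA that marks phosphate shortage, measured 7.91, 9.41 and 9.13 FPKM in control and 0, 0 and 0.118 FPKM in low potassium. Both genes are listed at 0 in at least 1 low-potassium library. In the authors' deposited table neither passed, with q = 0.166 for AT4G33720 and q = 0.341 for IPS1. The nitrate transporters NRT2.2 (-4.83 ± 0.25), NRT2.4 (-3.75 ± 0.15) and NRT2.6 (-3.08 ± 0.21) fell as well. The others of the leading 15 were CYP712A1 (-3.25 ± 0.14), the triterpenoid P450 CYP716A2 (-2.96 ± 0.23), the terpene synthase homologue AT3G29410 (-3.005 ± 0.098), the methyltransferase AT1G73600 (-3.39 ± 0.20), the germin-like cupin AT5G38940 (-3.16 ± 0.24) and AT1G12805 (-3.18 ± 0.13). CYP712A1 did not pass in the authors' deposited table (q = 0.355). The 2 germin-like genes named here, AT5G38910 and AT5G38940, moved in opposite directions.

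Aliphatic glucosinolates, the sulfur-rich defence compounds that crucifers make from methionine, formed the list with the most even direction. All 16 tested genes of 19 listed fell, with log2 changes of -2.75 to -0.46 and a median of -1.49. BCAT4, the aminotransferase that opens methionine chain elongation and the most abundant member, measured 199, 221 and 206 FPKM in control and 54.7, 36.5 and 22.3 FPKM in low potassium (-2.52 ± 0.26, adjusted p = 0.000243). Control libraries were even, and low potassium 3 was the lowest. IPMI1, an isomerase of the same elongation, went from 165, 162 and 194 to 42.8, 32.3 and 25.03 FPKM (-2.37 ± 0.17). GSTF11, a glutathione transferase of the core pathway, went from 24.4, 21.4 and 21.7 to 4.08, 2.87 and 2.64 FPKM (-2.498 ± 0.13). BAT5, which carries the precursors into plastids, went from 36.6, 34.99 and 38.0 to 17.5, 14.3 and 16.1 FPKM (-1.15 ± 0.086). No library of these 4 genes overlapped between groups. Chosen after their values were seen, MYB28, the main regulator of the pathway, fell from 59.98, 52.9 and 56.5 to 22.3, 16.0 and 21.6 FPKM (-1.47 ± 0.12), and CYP83A1, a core-pathway P450, had the lowest change (-2.75 ± 0.21).

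**Figure D2:**
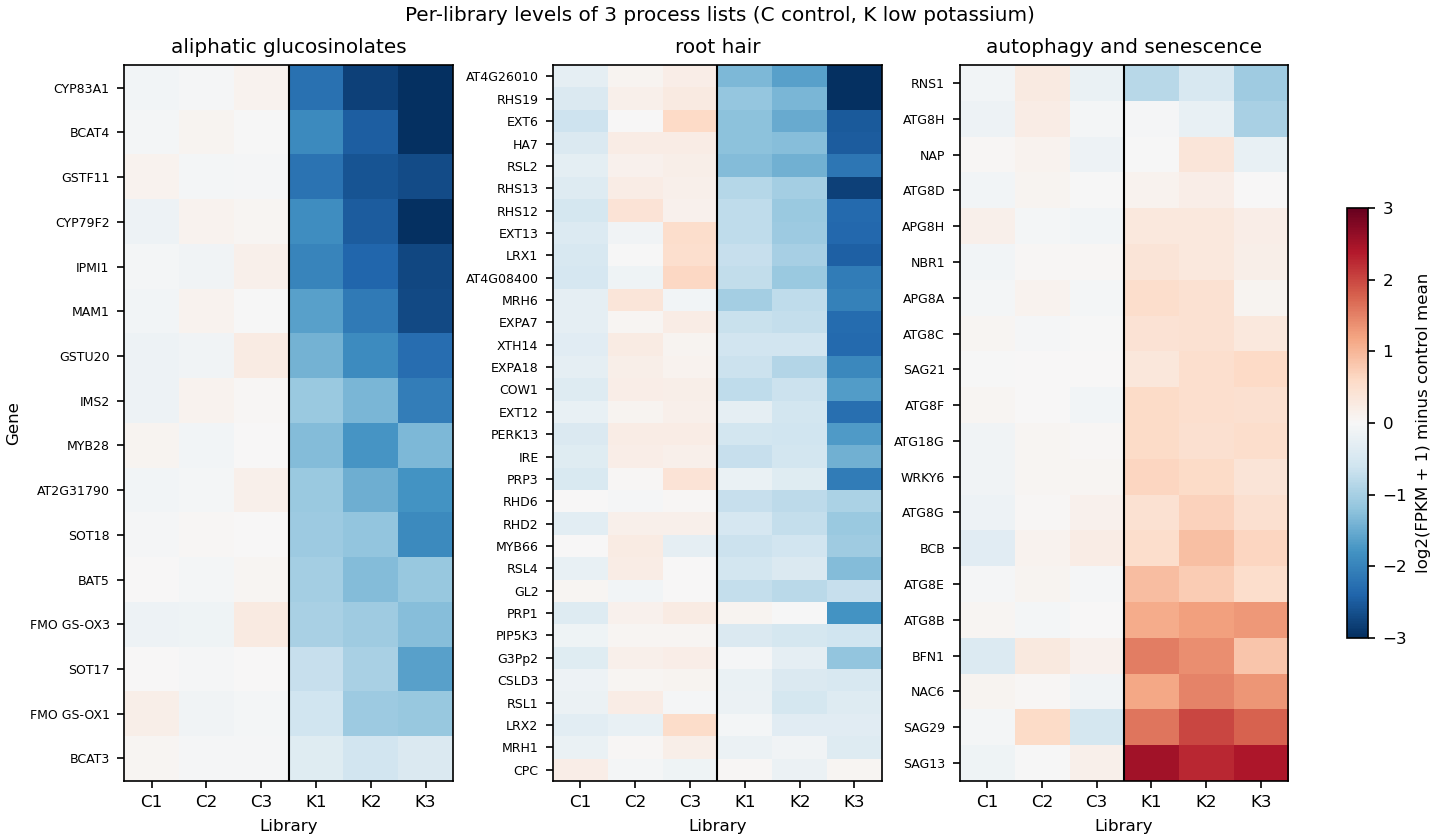
Each row is a tested gene and each column a library (C control, K low potassium), coloured by log2(FPKM + 1) minus the control mean. The 16 glucosinolate genes and most of the 32 root hair genes are blue in the low-potassium libraries, in most of them with the lowest value in K3 and in some, such as BAT5 and MYB28, in K2, while most of the 20 autophagy and senescence genes are red.

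Flavonoids, phenolic pigments and antioxidants, also had lower transcripts. Of 9 tested genes of 15 listed, 8 fell and 0 rose, with a median of -1.47. MYB12, which switches on flavonol synthesis, measured 13.6, 13.7 and 18.8 FPKM in control and 8.11, 7.59 and 5.56 FPKM in low potassium (-1.01 ± 0.16). F3H, a hydroxylase of the central pathway, measured 126, 104 and 304 FPKM and 49.7, 40.9 and 39.8 FPKM (-1.85 ± 0.34). TT4, the chalcone synthase that makes the first flavonoid, measured 676, 549.9 and 1315 FPKM and 353, 273 and 236 FPKM (-1.47 ± 0.30). Groups did not overlap, and control 3 was high for F3H and TT4. The count of genes that fell was 5 with no filter on low values, 4 without low potassium 2 and 5 without low potassium 3.

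Root hairs are the tubular outgrowths of the epidermis through which much uptake takes place. Of 32 root hair genes, 23 fell and 0 rose, with a median of -0.98. RHD6, which starts hair growth, measured 19.0, 18.4 and 19.3 FPKM in control and 11.2, 10.5 and 9.36 FPKM in low potassium (-0.81 ± 0.084). RSL2, which acts after RHD6, measured 9.48, 13.1 and 13.6 FPKM and 4.22, 3.74 and 1.88 FPKM (-1.64 ± 0.23). GL2, the factor that holds cells back from forming hairs, fell too, from 14.7, 13.2 and 14.2 to 8.1, 7.55 and 8.32 FPKM (-0.74 ± 0.080). The groups were apart for all 3 genes. RHS19, a peroxidase of hairs and the most abundant member, was spread widely, at 169.8, 256 and 278 FPKM in control and 103, 87.6 and 25.5 FPKM in low potassium (-1.88 ± 0.46, adjusted p = 0.0128). The summed level of the 3 root hair markers was 72.83 to 97.16 FPKM in control and 23.84 to 52.13 FPKM in low potassium. Low potassium 3 was the lowest for each of these markers. It was also the lowest library for all 3 xylem and all 3 root cap markers, with the xylem protease XCP1 at 20.35 FPKM there and at 45.01 and 60.49 FPKM in the other low-potassium libraries, and the part of this in the root hair counts was not tested beyond leaving it out. The count of genes that fell was 12 without control 2, 12 without control 3 and 23 without low potassium 3, where the median was -0.66. In bulk roots, fewer cells of a type and less RNA per cell cannot be told apart.

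The Casparian strip, the wall barrier of the endodermis that forces solutes through cells, had lower transcripts as well. Of 11 tested genes 9 fell and 0 rose, with a median of -0.68. CASP1, the scaffold protein with the highest level, measured 326, 315 and 386 FPKM in control and 182, 157 and 151 FPKM in low potassium (-1.06 ± 0.11). CASP2 went from 129.6, 116 and 132 to 58.3, 54.7 and 51.9 FPKM (-1.18 ± 0.080), and CASP4 from 39.1, 32.9 and 41.0 to 14.7, 12.6 and 12.2 FPKM (-1.45 ± 0.11). Each was lower in every low-potassium library. The summed level of the 3 endodermis markers, CASP1 and CASP2 among them, was 452.7 to 541.8 FPKM in control and 224.2 to 263.7 FPKM in low potassium. SCR, the endodermis marker that is no strip gene, measured 21.6, 21.32 and 23.26 FPKM in control and 23.03, 20.36 and 21.8 FPKM in low potassium, with the groups overlapping.

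Suberin, the fatty polyester laid down later in the endodermis, had genes moving both ways. Of 18 tested genes 11 fell and 3 rose, with a median of -0.40. Those that rose were FACT, an acyltransferase for wax-like caffeate esters, and the fatty acid reductases AT5G22500 (FAR1) and FAR4, which make the fatty alcohols. FACT measured 82.3, 85.9 and 99.3 FPKM in control and 172, 204 and 240.2 FPKM in low potassium (1.19 ± 0.13). AT5G22500 went from 45.1, 42.1 and 50.9 to 106, 113 and 143 FPKM (1.36 ± 0.12), and FAR4 changed by 0.34 ± 0.10. Those that fell with the smallest adjusted p were RWP1, which adds ferulate (-0.86 ± 0.13), GPAT5, which joins fatty acids to glycerol (-0.65 ± 0.11), and the exporter ABCG6 (-0.80 ± 0.15). FAR4 lost its call without control 1, control 2, low potassium 2 or low potassium 3 (adjusted p of at most 0.0975).

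Sterols, the membrane lipids from which brassinosteroids are made, were mostly lower. Of 20 tested genes 12 fell and 4 rose, with a median of -0.26. SMT1 and SMT3, methyltransferases that shape the sterol side chain, changed by -0.499 ± 0.071 and -0.65 ± 0.067. SMT3 measured 132, 126 and 127 FPKM in control and 85.4, 80.2 and 79.1 FPKM in low potassium. SQS1, the squalene synthase with the higher level of its pair, fell (-0.33 ± 0.068), as did DWF1, the most abundant member (-0.32 ± 0.073). Those that rose were SQE6, at 0.769, 0.477 and 0.803 FPKM in control and 17.96, 17.5 and 17.9 FPKM in low potassium, SQS2 (1.35 ± 0.19), the sterol desaturase CYP710A1 (0.91 ± 0.19) and, named after its value was seen, SQE2 (0.29 ± 0.097). SQE6 and SQS2 belong to small families with another member in the same step. SQE2 lost its call when low genes were kept, in the fit on 9 libraries, under the replicate block and without control 1, control 2, control 3, low potassium 1 or low potassium 3 (adjusted p of at most 0.113) and in the authors' deposited table (q = 0.113). In the authors' deposited table SQS1 (q = 0.0529), DWF1 (q = 0.122) and SQS2 (q = 0.315) did not pass either.

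Most tested genes fell in each of 6 cell wall families. Dirigent proteins, which guide the coupling of phenolics, had 14 of 17 tested genes lower and 0 higher, with a median of -0.71. AT3G55230, the most abundant, measured 273, 255 and 336 FPKM in control and 160.1, 136 and 116 FPKM in low potassium (-1.06 ± 0.14). AT3G24020 (-1.16 ± 0.081), AT2G21100 (-1.36 ± 0.099) and AT5G42500 (-1.11 ± 0.085) had the smallest adjusted p. Expansins, which loosen walls, had 12 of 22 lower and 1 higher. EXPA17, known from emerging lateral roots, measured 65.4, 74.2 and 97.1 FPKM in control and 17.0, 15.7 and 9.81 FPKM in low potassium (-2.41 ± 0.21). Its groups stood far apart, and EXPA15 (-1.08 ± 0.10) and EXPB1 (-1.19 ± 0.13) fell as well. EXPA4, the most abundant expansin, did not pass (-0.12 ± 0.097), and EXLA1, an expansin-like gene, rose (0.88 ± 0.26). EXLA1 lost its call when low genes were kept and without control 3 or low potassium 2 (adjusted p of at most 0.0784).

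Xyloglucan endotransglucosylases, which cut and rejoin the tethers between cellulose fibrils, had 16 of 25 tested genes lower and 2 higher, with a median of -0.69. XTH9 measured 52.2, 38.3 and 49.5 FPKM in control and 10.7, 9.83 and 10.6 FPKM in low potassium (-2.05 ± 0.12). XTH24 moved the other way, from 42.8, 36.8 and 26.1 to 73.9, 79.8 and 69.2 FPKM (1.08 ± 0.16). Neither gene had overlapping groups. XTH33 (-1.18 ± 0.11), XTH8 (-0.75 ± 0.077) and the most abundant member, XTH31 (-0.48 ± 0.16), fell, and XTH28 rose (0.24 ± 0.072). XTH28 lost its call in the fit on 9 libraries, under the replicate block and without control 1, control 2, low potassium 2 or low potassium 3 (adjusted p of at most 0.103) and in the authors' deposited table (q = 0.215), and XTH31 lost its call when low genes were kept, under quantile normalization, in the fit on 9 libraries, under the replicate block and without control 1, control 3, low potassium 2 or low potassium 3 (adjusted p of at most 0.112).

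Arabinogalactan proteins, the sugar-coated proteins of the cell surface, had 30 of 45 tested genes lower and 3 higher, with a median of -0.65. FLA9 measured 412, 364 and 448 FPKM in control and 227, 189.5 and 185 FPKM in low potassium (-1.02 ± 0.11). AGP30, a root-specific member, rose from 94.5, 89.6 and 85.1 to 199, 194 and 167 FPKM (1.05 ± 0.087). Both genes had groups apart. AGP13 (-1.600 ± 0.10) and AGP22 (-1.101 ± 0.11) fell, and FLA5 (1.43 ± 0.20) and AGP5 (0.88 ± 0.15) rose from low levels. AGP31, the most abundant, did not pass (-0.40 ± 0.16, adjusted p = 0.0795), and passed without control 2 (adjusted p = 0.0454) and in the authors' deposited table (q = 0.0483).

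The cellulose synthase superfamily had 14 of 25 tested genes lower and 2 higher, with a median of -0.43. CESA1, a subunit of the complex that spins primary wall cellulose, measured 138, 147 and 172 FPKM in control and 104, 81.4 and 90.2 FPKM in low potassium (-0.72 ± 0.11). CESA2 (-0.81 ± 0.10), CESA5 (-0.86 ± 0.12) and ATCSLB05 (-1.39 ± 0.17) fell as well. CSLE1 (1.003 ± 0.065) and CSLB03 (1.17 ± 0.22), of the cellulose synthase-like branches, rose. Endoglucanases of glycosyl hydrolase family 9, which trim cellulose, had 9 of 12 lower and 1 higher, with a median of -0.52. GH9B8 measured 39.4, 36.2 and 41.5 FPKM in control and 14.8, 12.2 and 14 FPKM in low potassium (-1.45 ± 0.092), with the groups far apart. GH9C3 (-1.08 ± 0.12), GH9B13 (-0.94 ± 0.12) and GH9A1 (-0.27 ± 0.077) fell, and CEL3 rose (0.93 ± 0.16). GH9A1 is the membrane-bound KORRIGAN enzyme that works beside cellulose synthase. GH9A1 lost its call under the replicate block and without control 2, control 3, low potassium 1 or low potassium 3 (adjusted p of at most 0.0737) and in the authors' deposited table (q = 0.213).

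**Figure D3:**
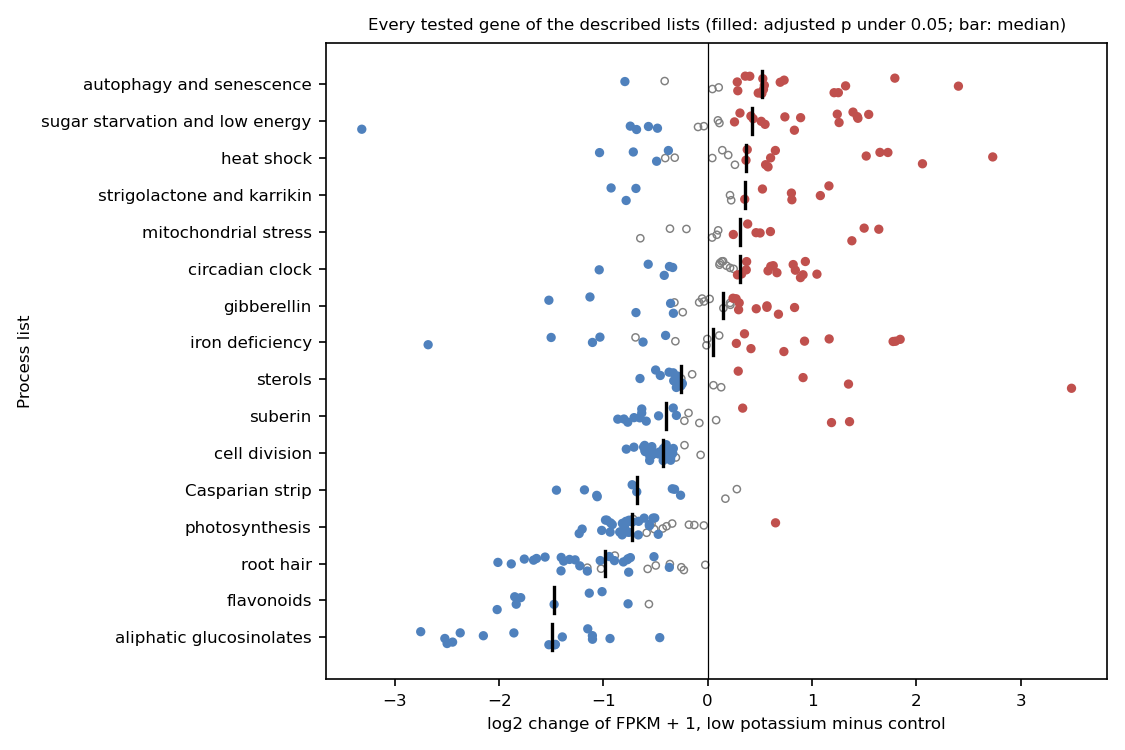
Log2 change of FPKM + 1 (low potassium minus control) of every tested gene of the described process lists, with filled points for genes past an adjusted p of 0.05 and a bar at the median. Aliphatic glucosinolates lie wholly below 0 with a median of -1.49, and the autophagy and senescence list has a median of 0.52 with 1 gene that fell.

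Ribosomal proteins, the building blocks of the translation machinery, had 175 of 286 tested genes lower and 14 higher, with a median of -0.36. The changes were small and widespread. Of the 136 members with a mean of at least 100 FPKM, 109 fell and 1 rose, and of the 150 below that, 66 fell and 13 rose. AT5G18380, the most abundant, measured 1360.2, 1191 and 1153 FPKM in control and 922, 919 and 910.3 FPKM in low potassium (-0.42 ± 0.10). Its low-potassium libraries were nearly equal and below every control. AT5G59240 (-0.92 ± 0.10), RPL15, of the plastid ribosome (-0.70 ± 0.083), and AT1G77750, of the S13/S18 family (-0.60 ± 0.077), had the smallest adjusted p among those that fell. Of the 3 that rose with the smallest adjusted p, ATMG00080 (1.28 ± 0.13) is encoded in the mitochondrion, ATCG00780 (0.75 ± 0.092) in the chloroplast and AT5G39850 (0.60 ± 0.074) in the nucleus. RPL15 did not pass in the authors' deposited table (q = 0.102). The family as a whole took 7.22% to 9.20% of summed FPKM in control and 5.85% to 6.64% in low potassium. The count that fell was 116 without low potassium 1.

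Promoters of abundant ribosomal protein genes are known for site II elements, and those of some members that fell are shown because these genes moved together. The genes shown have the smallest adjusted p among those with an element in a window that overlaps no annotated gene. The counts below use all windows. The windows hold the 250 bases before the gene start in RefSeq TAIR10.1, read 5′ to 3′ on the gene's own strand, with site II (TGGGCC or TGGGCT, either strand) in capitals. The genes, chosen after their values were seen, encode the ribosomal proteins S6, S4 and S24e.
AT4G31700 (chr4:15347805-15348054, minus strand): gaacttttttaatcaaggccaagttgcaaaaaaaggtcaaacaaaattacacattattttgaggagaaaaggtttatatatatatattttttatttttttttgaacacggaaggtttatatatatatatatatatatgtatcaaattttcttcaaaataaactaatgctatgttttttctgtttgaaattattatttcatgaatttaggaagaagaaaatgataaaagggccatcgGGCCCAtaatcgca
AT5G58420 (chr5:23619209-23619458, plus strand): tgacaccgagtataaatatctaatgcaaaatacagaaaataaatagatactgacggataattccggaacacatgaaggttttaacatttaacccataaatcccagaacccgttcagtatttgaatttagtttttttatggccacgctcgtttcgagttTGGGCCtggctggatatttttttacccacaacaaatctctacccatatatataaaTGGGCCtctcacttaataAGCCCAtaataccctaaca
AT5G28060 (chr5:10070900-10071149, minus strand): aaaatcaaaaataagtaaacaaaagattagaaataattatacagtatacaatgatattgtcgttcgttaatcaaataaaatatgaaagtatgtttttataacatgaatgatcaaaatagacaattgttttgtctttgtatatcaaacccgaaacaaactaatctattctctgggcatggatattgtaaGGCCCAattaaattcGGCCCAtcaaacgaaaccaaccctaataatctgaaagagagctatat
Site II was in 97 of 135 promoters of the abundant ribosomal genes (71.9%) and in 22.4% of the 18710 promoters of all tested genes. Among genes that rose it was in 748 of 3966 and among genes that fell in 841 of 4154. AT4G31700 fell from 769, 755 and 692 to 489.7, 508 and 525 FPKM (-0.54 ± 0.087), AT5G58420 changed by -0.54 ± 0.091 and AT5G28060 by -0.53 ± 0.094.

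Genes of cell division were lower by a similar amount. Of 31 tested genes 27 fell and 0 rose, with a median of -0.43 and called changes between -0.78 and -0.33. TSO2, the ribonucleotide reductase subunit that supplies DNA synthesis and the most abundant member, measured 81.4, 80.3 and 79.4 FPKM in control and 52.9, 46.1 and 40.9 FPKM in low potassium (-0.78 ± 0.095). SYP111, the syntaxin of the new cell plate, went from 28.2, 23.2 and 21.8 to 14.1, 15.3 and 14.02 FPKM (-0.71 ± 0.10). CDKB2;1, a mitotic kinase, changed by -0.54 ± 0.081. Control libraries of TSO2 were nearly equal, and no groups overlapped. Kinesins, a motor family that includes those of the spindle and cell plate, had 23 of 36 lower and 0 higher, with a median of -0.33. ATK4 (-0.80 ± 0.083), ATK5 (-0.72 ± 0.094) and KP1 (-0.60 ± 0.083) led them, and ATK2, the most abundant, fell too (-0.31 ± 0.080). ATK2 did not pass in the authors' deposited table (q = 0.0615). The kinesin count was 15 without control 2. The summed level of the meristem markers PLT1, PLT2 and WOX5 was 12.5 to 15.02 FPKM in control and 12.51 to 13.97 FPKM in low potassium, with the groups overlapping.

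Autophagy, the recycling of cell contents, and senescence made the list with the highest share of members that rose. Of 20 tested genes 16 rose and 1 fell, with a median of 0.52. ATG8B, one of the small proteins that coat the autophagosome, measured 24.2, 22.2 and 23.3 FPKM in control and 51.4, 55.9 and 58.2 FPKM in low potassium (1.21 ± 0.075). NAC6 (AT5G39610, also known as ORE1), a factor that drives leaf senescence, went from 8.48, 8.26 and 7.38 to 19.0, 24.4 and 21.6 FPKM (1.32 ± 0.10). SAG13, a senescence marker, went from 0.366, 0.483 and 0.652 to 7.62, 6.12 and 7.08 FPKM (2.404 ± 0.13). No group overlapped in these genes. SAG21, the most abundant, rose (0.48 ± 0.097), and RNS1, a ribonuclease induced by phosphate shortage, fell (-0.79 ± 0.17).

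Genes known from sugar starvation and low energy moved mostly upward, although the marker ASN1 did not. Of 24 tested genes 15 rose and 5 fell, with a median of 0.43. TPS8, a class II trehalose phosphate synthase protein, measured 10.09, 10.9 and 8.88 FPKM in control and 25.9, 28.1 and 29.1 FPKM in low potassium (1.39 ± 0.091). AT1G60140, of the same class, went from 33.9, 35.5 and 32.0 to 62.2, 62.9 and 65.2 FPKM (0.89 ± 0.069), and TPS9 changed by 0.83 ± 0.076. These genes were even within groups. Those that fell were ASN1 (-3.32 ± 0.13), EXO (-0.68 ± 0.089) and PHI-1 (-0.74 ± 0.10) and, named after their values were seen, BZO2H3 (-0.48 ± 0.10) and DIN10 (-0.57 ± 0.15). EXO and PHI-1 are related secreted proteins of growth, BZO2H3 is a bZIP factor of starvation, and DIN10 is a raffinose synthase gene induced in the dark.

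Trehalose phosphate enzymes, a sugar signalling family, moved both ways. Of 16 tested genes 7 rose and 8 fell, with a median of -0.18. The synthase-like genes TPS8, AT1G60140 and TPS9 were the members that rose with the smallest adjusted p. The phosphatases TPPB, TPPI and TPPE, which remove trehalose 6-phosphate, were those that fell with the smallest adjusted p. TPPB measured 33.1, 35.8 and 36.7 FPKM in control and 12.8, 11.4 and 8.51 FPKM in low potassium (-1.62 ± 0.13). TPPI changed by -1.73 ± 0.20 and TPPE by -1.74 ± 0.22. The family did not divide by enzyme type, since the phosphatase gene TPPH was among those that rose and the synthase genes TPS5 and TPS1 among those that fell, all named after their values were seen.

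The circadian clock, a set of interlocked daily feedback loops, had 14 of 26 tested genes higher and 5 lower, with a median of 0.31. The hour of harvest is unknown from the labels. AT3G54500 (LNK2), a coactivator of clock genes, measured 28.9, 29.2 and 34.1 FPKM in control and 55.8, 67.4 and 70.8 FPKM in low potassium (1.05 ± 0.11). RVE8, a morning factor that activates evening genes, went from 6.9, 8.28 and 9.7 to 14.3, 17.58 and 17.5 FPKM (0.91 ± 0.13). RVE2, a related factor, went from 16.2, 17.2 and 10.8 to 25.5, 30.9 and 29.8 FPKM (0.94 ± 0.16). All were higher in every low-potassium library. ELF4, of the evening complex, fell from 25.9, 32.1 and 39.5 to 15.5, 17.1 and 12.9 FPKM (-1.04 ± 0.16). GRP7, an abundant RNA-binding protein under clock control, fell from 1002, 989.6 and 865 to 629, 614 and 678 FPKM (-0.57 ± 0.10). TCP11 (AT5G08330) also fell (-0.42 ± 0.086), as did, named after their values were seen, PCL1 (-0.34 ± 0.084) and FKF1 (-0.37 ± 0.12). AT4G39260, the most abundant member and close relative of GRP7, did not pass (0.11 ± 0.13). PCL1 lost its call without control 2 (adjusted p of at most 0.0546) and in the authors' deposited table (q = 0.121), and FKF1 lost its call with a pseudocount of 0.1, under quantile normalization, under the replicate block and when any 1 library was left out (adjusted p of at most 0.104) and in the authors' deposited table (q = 0.657).

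Clock genes are known to carry the evening element, and the promoters of a clock gene that rose and of one that fell are shown to set the 2 directions side by side. BOA, an evening-complex factor named after its values were seen, rose (0.60 ± 0.13). The windows are as above, with the evening element (AAAATATCT, either strand) in capitals.
BOA (chr5:24003638-24003887, plus strand): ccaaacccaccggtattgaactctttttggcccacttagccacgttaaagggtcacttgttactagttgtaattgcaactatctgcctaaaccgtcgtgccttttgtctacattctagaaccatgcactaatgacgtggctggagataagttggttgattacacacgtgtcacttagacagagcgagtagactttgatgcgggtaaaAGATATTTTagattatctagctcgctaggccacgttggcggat
GRP7 (chr2:9266558-9266807, minus strand): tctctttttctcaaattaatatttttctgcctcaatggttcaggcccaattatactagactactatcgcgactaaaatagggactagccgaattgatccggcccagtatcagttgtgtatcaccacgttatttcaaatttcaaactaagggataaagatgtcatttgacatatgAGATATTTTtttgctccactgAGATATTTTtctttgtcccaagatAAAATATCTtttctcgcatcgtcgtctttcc
The evening element was in 8 of 26 clock promoters (30.8%) and in 2.44% of all promoters. It was in 2 of the 14 clock genes that rose and in 3 of the 5 that fell. The G box (CACGTG) was in 9 of 26 clock promoters (34.6%) and in 7.39% of all.

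Heat shock genes, which encode chaperones and their regulators, had 11 of 21 tested members higher and 4 lower, with a median of 0.37. HSP18.2, a small heat shock protein, measured 10.13, 10.2 and 10.09 FPKM in control and 62.7, 102 and 61.0 FPKM in low potassium (2.73 ± 0.18). Control libraries were nearly equal, and low potassium 2 was the highest. HSP17.4 measured 4.91, 5.41 and 5.62 FPKM and 16.3, 25.8 and 15.8 FPKM (1.65 ± 0.17), and AT1G53540, of the same class, changed by 1.52 ± 0.15. Those that fell were the immunophilin AT5G48570 (-0.71 ± 0.099), the factor HSFA6B (-1.04 ± 0.21), the abundant housekeeping chaperone HSC70-1 (-0.38 ± 0.11) and, named after its value was seen, the factor HSFA2 (-0.49 ± 0.16). The small heat shock genes named here rose, while the members that fell were regulators and larger chaperones or their partners. The list did not divide by type, since DREB2A, a regulator named below, rose as well. HSC70-1 lost its call when low genes were kept, under the replicate block and without control 1, control 2, low potassium 1 or low potassium 2 (adjusted p of at most 0.0978) and in the authors' deposited table (q = 0.164), and HSFA2 lost its call without control 1, control 2, low potassium 2 or low potassium 3 (adjusted p of at most 0.113).

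The promoters of HSP17.4 and of DREB2A, a heat- and drought-responsive factor of the list named after its values were seen (0.60 ± 0.11), show heat shock elements (GAANNTTC, which reads the same on both strands) in capitals, as members that rose.
HSP17.4 (chr3:16984868-16985117, minus strand): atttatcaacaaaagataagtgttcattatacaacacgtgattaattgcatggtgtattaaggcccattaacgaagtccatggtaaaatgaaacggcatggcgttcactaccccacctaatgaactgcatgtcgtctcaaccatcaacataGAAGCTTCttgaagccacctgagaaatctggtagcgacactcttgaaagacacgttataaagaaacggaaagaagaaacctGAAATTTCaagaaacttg
DREB2A (chr5:1601955-1602204, plus strand): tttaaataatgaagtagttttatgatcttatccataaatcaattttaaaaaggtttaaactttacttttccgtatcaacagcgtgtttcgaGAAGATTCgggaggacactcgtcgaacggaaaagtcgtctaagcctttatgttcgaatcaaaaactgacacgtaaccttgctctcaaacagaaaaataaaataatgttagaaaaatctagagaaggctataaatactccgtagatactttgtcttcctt
The heat shock element was in 7 of 21 promoters of the list (33.3%) and in 9.21% of all promoters. None of the motifs named in these windows contains another, and a match of letters is no proof of a bound site.

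Iron deficiency genes moved in opposite directions within the list. Of 20 tested genes 9 rose and 6 fell, with a median of 0.053. NRAMP1, a transporter of manganese and iron, measured 28.9, 28.6 and 27.8 FPKM in control and 104, 98.6 and 113 FPKM in low potassium (1.85 ± 0.073). HA2, the main proton pump of the root surface and the most abundant member, went from 453, 499 and 554 to 1171, 1096 and 1104 FPKM (1.16 ± 0.10). The small iron-signalling peptide genes AT1G47395 (1.801 ± 0.12) and AT1G47400 (1.78 ± 0.15) also rose. IRT1, the principal iron importer, fell from 12.8, 14.4 and 23.2 to 2.39, 1.78 and 1.08 FPKM (-2.68 ± 0.24). FRU (AT2G28160, also known as FIT), the factor that switches on IRT1, fell from 26.51, 31.1 and 33.1 to 14.03, 13.2 and 13.2 FPKM (-1.105 ± 0.093). Groups were apart in each of these genes. bHLH38, a partner of FRU, fell (-1.03 ± 0.15), as did, named after its value was seen, the ferric reductase FRO2 (-1.501 ± 0.28).

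Among hormone genes beyond ABA, gibberellin genes had 9 of 23 tested members higher and 5 lower, with a median of 0.15. KAO2, an early enzyme, rose (0.83 ± 0.095), and so did the inactivating enzymes GA2OX6 (0.68 ± 0.083) and GA2OX2 (0.57 ± 0.082). The activating enzymes GA3OX2, at 9.93, 9.3 and 16.9 FPKM in control and 3.68, 4.18 and 2.51 FPKM in low potassium (-1.52 ± 0.23), and GA3OX1 (-0.36 ± 0.075) fell. GASA1, a gibberellin-responsive peptide gene, fell from 389.9, 348 and 373 to 184, 153 and 170.3 FPKM (-1.13 ± 0.092), with the groups far apart. GASA4, the most abundant, did not pass (-0.24 ± 0.11). Named after their values were seen, AT5G14920, of the GASA family (-0.69 ± 0.16), and the growth repressor RGL1 (-0.33 ± 0.11) fell. The count that rose was 5 without low potassium 1. GA2OX2 lost its call in the fit on 9 libraries (adjusted p of at most 0.0505), and RGL1 lost its call when low genes were kept, under the replicate block and without control 1, control 2, low potassium 1, low potassium 2 or low potassium 3 (adjusted p of at most 0.114) and in the authors' deposited table (q = 0.0702).

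Strigolactones and karrikins signal through related receptors. Of 11 tested genes 6 rose and 3 fell, with a median of 0.36. MAX2, the F-box protein that serves both signals, measured 11.1, 11.7 and 13.1 FPKM in control and 25.4, 28.0 and 30.7 FPKM in low potassium (1.16 ± 0.095). KUF1, a karrikin response marker, went from 9.26, 8.98 and 8.09 to 18.3, 18.6 and 22.2 FPKM (1.08 ± 0.098), and AT5G57710 (SMAX1), a repressor that MAX2 removes, changed by 0.80 ± 0.087. These were higher in every low-potassium library. Those that fell were KAI2, the karrikin receptor (-0.78 ± 0.19), CYP711A1, the MAX1 enzyme of strigolactone synthesis and the most abundant member (-0.69 ± 0.13), and AT2G40130, a relative of SMAX1 (-0.93 ± 0.14).

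Most tested genes of both organelle genomes were higher, whereas most nuclear photosynthesis genes were lower. Of 28 tested genes encoded in the mitochondrion, 24 rose and 0 fell, with a median of 1.27. ATMG00160, cytochrome oxidase subunit 2, measured 5.01, 3.24 and 5.39 FPKM in control and 30.2, 28.3 and 27.02 FPKM in low potassium (2.43 ± 0.15). ATMG00640, an ATP synthase subunit, went from 7.08, 6.39 and 5.32 to 29.0, 31.1 and 31.4 FPKM (2.12 ± 0.10), and ATMG01360, a cytochrome oxidase gene, changed by 1.64 ± 0.10. ATMG00660, the most abundant, had overlapping groups and did not pass (0.27 ± 0.25, adjusted p = 0.42). With a filter of 5 FPKM, which leaves fewer of these genes to test, 11 rose. The mitochondrial genes took 0.0129% to 0.0184% of summed FPKM in control and 0.0345% to 0.0420% in low potassium. These are small parts of each library. Neither the cause of the rise nor reads shared with nuclear copies of these genes was tested.

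Of 30 tested genes encoded in the chloroplast, 17 rose and 0 fell, with a median of 0.65. Their log2 changes ran from -2.59, which did not pass, to 4.66, which passed. The gene at 4.66 had overlapping libraries, so it is not among the leading genes, and its rise is less certain. ATCG00790, for ribosomal protein L16, measured 183, 161 and 135 FPKM in control and 214, 277 and 314 FPKM in low potassium (0.74 ± 0.16). ATCG00780 (0.75 ± 0.092), ATCG00330 (0.95 ± 0.12) and ATCG00810 (0.95 ± 0.13), also of the plastid ribosome, rose. In the fit on 9 libraries 9 rose. Of 39 tested photosynthesis genes of the nucleus, 28 fell and 1 rose, with a median of -0.72. PSBR, a photosystem II subunit and the most abundant, measured 219, 189 and 257 FPKM in control and 109, 130.0 and 107 FPKM in low potassium (-0.93 ± 0.13). PSAK, of photosystem I, went from 37.3, 31.1 and 44.8 to 16.6, 15.1 and 14.3 FPKM (-1.23 ± 0.13), and the light-harvesting genes CAB1 and LHCB5 changed by -0.97 ± 0.11 and -0.78 ± 0.099. These genes were lower in all low-potassium libraries. The shoot and leaf markers, CAB1 among them, summed to 278.7 to 353.4 FPKM in control and 188.9 to 202.6 FPKM in low potassium, and their part in this result was not tested. PSBO2, the oxygen-evolving complex subunit with a second copy, rose (0.65 ± 0.16). PSBO2 lost its call in the fit on 9 libraries and without low potassium 2 (adjusted p of at most 0.186).

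**Figure D4:**
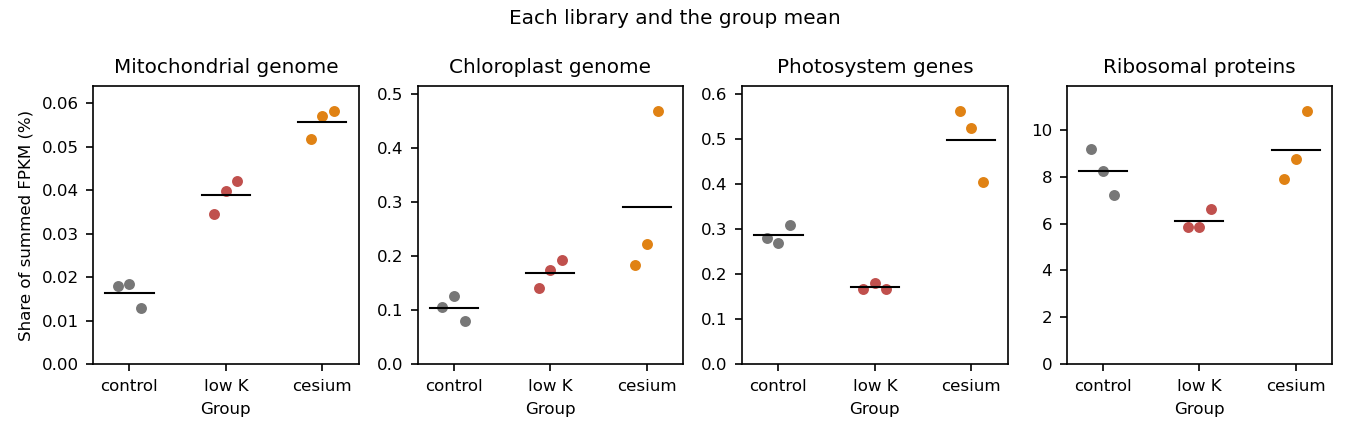
Share of summed FPKM, in percent, taken by genes of the mitochondrial genome, of the chloroplast genome, of photosystem and light-harvesting proteins and of ribosomal proteins, with a point for each library and a line at the mean of 3. The low-potassium libraries lie above control for both organelle genomes and below it for the photosystem and ribosomal genes, and the cesium libraries are higher than low potassium for the mitochondrial and photosystem genes.

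Genes known to respond to mitochondrial stress had 8 of 14 tested members higher and 0 lower, with a median of 0.31. AOX1D, an alternative oxidase that bypasses part of the respiratory chain, measured 0, 0.14 and 0.144 FPKM in control and 2.65, 2.39 and 2.19 FPKM in low potassium (1.64 ± 0.14). AT2G21640, a marker of oxidative stress in mitochondria, went from 11.1, 15.2 and 12.7 to 42.3, 43.3 and 30.7 FPKM (1.500 ± 0.15). NAC13, a factor that carries this signal to the nucleus, changed by 0.503 ± 0.082. AOX1A, the most abundant, rose with overlapping libraries, at 32.5, 40.8 and 38.1 FPKM in control and 59.6, 56.8 and 39.97 FPKM in low potassium (0.46 ± 0.15). AOX1A lost its call when low genes were kept, in the fit on 9 libraries, in limma without the trend and without control 1, control 2, control 3, low potassium 1 or low potassium 2 (adjusted p of at most 0.128). AOX1D did not pass in the authors' deposited table (q = 0.325).

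Of the transcription factor families, WRKY, NAC and bZIP had the highest shares of members that rose and are described for that, while MYB factors had 21 of 80 tested genes higher and 25 lower and LBD factors 6 of 23 higher and 8 lower. WRKY factors, known from defence and nutrient responses, had 28 of 54 tested genes higher and 10 lower. WRKY31 measured 5.64, 8.58 and 6.85 FPKM in control and 29.5, 29.4 and 29.1 FPKM in low potassium (1.93 ± 0.13), WRKY45 9.68, 10.6 and 8.27 and 34.2, 41.4 and 40.7 FPKM (1.92 ± 0.11). Neither overlapped between groups, and WRKY26 (1.35 ± 0.080) and the most abundant member, WRKY11 (0.72 ± 0.083), rose as well. WRKY54 (-1.75 ± 0.14), WRKY60 (-0.97 ± 0.087) and WRKY71 (-1.04 ± 0.14) fell. NAC factors, many of them tied to stress and ageing, had 30 of 62 higher and 4 lower. NAC042, a factor also called JUB1 that is tied to longevity, went from 5.31, 5.68 and 5.47 to 31.2, 25.2 and 33.0 FPKM (2.24 ± 0.11), and NAC047 from 26.3, 29.4 and 28.5 to 93.5, 93.2 and 87.9 FPKM (1.67 ± 0.071). In both the groups were far apart. NAC083, the most abundant, rose (0.23 ± 0.071). Those that fell were NAC094 (-0.72 ± 0.16), NAC044 (-0.61 ± 0.14), the vessel factor VND1 (-0.47 ± 0.15) and, named after its value was seen, NAC103 (-0.43 ± 0.14). NAC083 lost its call in the fit on 9 libraries, under the replicate block and without control 1, control 2, control 3, low potassium 1 or low potassium 2 (adjusted p of at most 0.11) and in the authors' deposited table (q = 0.22), VND1 lost its call under quantile normalization, in the fit on 9 libraries, under the replicate block and without control 2, control 3, low potassium 1, low potassium 2 or low potassium 3 (adjusted p of at most 0.125), and NAC103 lost its call under quantile normalization, under the replicate block and without control 1, control 2, control 3, low potassium 1 or low potassium 2 (adjusted p of at most 0.105).

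bZIP factors had 14 of 29 tested genes higher and 3 lower. BZIP24, known from salt response, measured 4.15, 3.92 and 4.06 FPKM in control and 10.5, 9.35 and 10.09 FPKM in low potassium (1.12 ± 0.085). TGA7 (0.91 ± 0.071), a defence factor, and bZIP1 (1.26 ± 0.13), known from energy starvation, rose, and so did bZIP2, the most abundant (0.26 ± 0.086). BZIP61 (-0.45 ± 0.064), BZIP34 (-0.63 ± 0.15) and bZIP3 (-0.29 ± 0.071) fell. bZIP2 lost its call when low genes were kept, in the fit on 9 libraries, under the replicate block and when any 1 library was left out (adjusted p of at most 0.149) and in the authors' deposited table (q = 0.192), and bZIP3 lost its call in the fit on 9 libraries (adjusted p of at most 0.178) and in the authors' deposited table (q = 0.116). F-box proteins, which choose targets for degradation, had 63 of 145 higher, KUF1 among them, and 5 lower. AT5G27920 measured 15.4, 16.0 and 15.7 FPKM in control and 47.7, 47.9 and 53.8 FPKM in low potassium (1.603 ± 0.074), with even libraries in each group, and AT3G23880 changed by 1.65 ± 0.14. FBW2, the most abundant, did not pass (0.11 ± 0.063). Those that fell were AUF2 (-1.26 ± 0.12), AUF1 (-0.33 ± 0.093) and AT2G41170 (-0.29 ± 0.080) and, named after their values were seen, AT3G47030 (-0.66 ± 0.19) and AT5G07610 (-0.58 ± 0.17). The count that rose was 40 without control 2 and 39 without low potassium 3. AUF1 lost its call under the replicate block and without control 3 or low potassium 3 (adjusted p of at most 0.0612), AT2G41170 lost its call under the replicate block and without control 1, low potassium 1 or low potassium 3 (adjusted p of at most 0.062) and in the authors' deposited table (q = 0.132), AT3G47030 lost its call without control 2, control 3, low potassium 1 or low potassium 2 (adjusted p of at most 0.0757), and AT5G07610 lost its call under the replicate block and without control 2, control 3, low potassium 2 or low potassium 3 (adjusted p of at most 0.089).

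CIPK kinases, which pass on calcium signals from CBL sensors, had 8 of 18 tested genes higher and 3 lower. CIPK9, known from low potassium, measured 1.89, 2.76 and 1.603 FPKM in control and 15.7, 15.9 and 13.97 FPKM in low potassium (2.41 ± 0.14). CIPK23, the kinase that activates potassium uptake (0.78 ± 0.070), and CIPK3 (0.72 ± 0.083) rose. CIPK7, the most abundant, fell from 183, 179 and 169 to 70.4, 73.2 and 83.2 FPKM (-1.22 ± 0.083), with the groups far apart, and CIPK18 (-0.84 ± 0.15) and CIPK19 (-0.68 ± 0.16) fell too. Cyclic nucleotide gated channels, which let cations through the membrane, had 5 of 12 higher and 3 lower, all by less than 1. CNGC5, the most abundant (0.38 ± 0.087), CNGC13 (0.63 ± 0.11), CNGC1 (0.43 ± 0.077), CNGC17 (0.39 ± 0.084) and, named after its value was seen, CNGC6 (0.20 ± 0.067) rose. CNGC9 (-0.58 ± 0.11), CNGC14 (-0.44 ± 0.094) and CNGC15 (-0.31 ± 0.097) fell, and CNGC5, CNGC6, CNGC9 and CNGC14 are known from root hair growth. CNGC6 lost its call under quantile normalization, in the fit on 9 libraries, under the replicate block, in limma without the trend and when any 1 library was left out (adjusted p of at most 0.131) and in the authors' deposited table (q = 0.325), and CNGC15 lost its call when low genes were kept, under the replicate block and without control 1, control 2, control 3, low potassium 2 or low potassium 3 (adjusted p of at most 0.113) and in the authors' deposited table (q = 0.0893). CNGC1 did not pass in the authors' deposited table (q = 0.126). Tetraspanins, membrane proteins of vesicles, had 7 of 13 higher and 2 lower. TET3, the most abundant, measured 62.6, 69.0 and 75.9 FPKM in control and 103, 105.2 and 95.3 FPKM in low potassium (0.55 ± 0.087), and TET8 (0.60 ± 0.079) and TET5 (0.55 ± 0.11) rose. TET10 (-0.52 ± 0.14) and TET7 (-0.39 ± 0.11) fell. TET10 lost its call without control 1 or low potassium 2 (adjusted p of at most 0.0622), and TET7 lost its call in the fit on 9 libraries and without control 1 or low potassium 2 (adjusted p of at most 0.07) and in the authors' deposited table (q = 0.343).

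Several large families had similar numbers of higher and lower members. Of these, the proteins of unknown function and the ABC transporters stayed near the shares of all genes. Proteins with a domain of unknown function had 152 of 756 tested members higher and 159 lower. UDP-glycosyltransferases, which attach sugars to small molecules, had 28 of 97 higher and 26 lower, with a median of -0.026. Aspartyl proteases had 13 of 48 higher and 14 lower. Both families were above the shares of all genes in each direction. ABC transporters had 17 of 80 higher and 20 lower. Pentatricopeptide repeat proteins, which edit and process organelle RNA, were below the shares of all genes in both directions. They had 14 of 172 higher and 6 lower, with a median of 0.057. Of the lists left aside, 11 of 23 potassium transport genes rose and 4 fell, 9 of 29 nitrate genes rose and 11 fell, and 15 of 36 ABA genes rose and 8 fell.

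Low potassium was also set directly against cesium, which can enter through potassium transporters, to show where both treatments differ. Cesium 3 differed in part from the other cesium libraries. Its chloroplast genes took 0.468% of summed FPKM, against 0.184% and 0.222% in cesium 1 and 2. Its aliphatic glucosinolate genes summed to 829 FPKM, against 1341 and 1393 FPKM. Differences from cesium therefore hold the spread of that library as well. Of 19433 genes tested in the fit of 9 libraries, 34% passed, 3443 (17.7%) as higher and 3160 (16.3%) as lower in low potassium than in cesium, and the median over all genes was 0.0095. A log2 difference of at least 1 was reached by 2.79% as higher and 2.18% as lower. All 16 glucosinolate genes were lower in low potassium than in cesium, with a median difference of -1.58. BCAT4 measured 271, 281 and 151 FPKM in cesium, with a low potassium minus cesium difference of -2.63 ± 0.31. Its low-potassium libraries were the lowest of the 9. Of 20 autophagy and senescence genes 12 were higher than in cesium, with a median difference of 0.60. ATG8B measured 36.1, 28.5 and 36.0 FPKM in cesium (difference 0.71 ± 0.10). Of 286 ribosomal genes 226 were lower than in cesium, and of 31 cell division genes 21 were.

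Root hair genes had a median difference from cesium near that of all genes, and the Casparian strip differed in part. Of 32 root hair genes 1 was higher and 1 lower than in cesium, RHD6 differed by -0.25 ± 0.12 (adjusted p = 0.149), and the median difference was -0.041. Of 11 Casparian strip genes 4 were higher and 1 lower than in cesium, with a median difference of 0.25. CASP1 measured 144, 137 and 188 FPKM in cesium, and its difference of 0.072 ± 0.14 did not pass. AT1G52820, among the genes that fell most against control, measured 0.668, 1.75 and 2.54 FPKM in cesium, and its difference of 0.024 ± 0.23 did not pass (adjusted p = 0.946). A p that misses the threshold does not show that levels were alike. The 9 flavonoid genes had a median difference of -0.34 from cesium.

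Suberin genes were mostly higher and photosynthesis genes mostly lower than in cesium. Of 18 suberin genes 14 were higher than in cesium and 0 lower, with a median difference of 0.79. FACT measured 83.8, 67.3 and 54.0 FPKM in cesium (difference 1.58 ± 0.17), and GPAT5, which fell against control, was higher than in cesium (0.77 ± 0.11). Of 39 photosynthesis genes 38 were lower than in cesium, with a median difference of -1.64, and CAB1 measured 721, 584 and 417 FPKM there. ATMG00640 measured 50.1, 42.0 and 38.0 FPKM in cesium (difference -0.49 ± 0.12), above its low-potassium libraries. HSP18.2 measured 9.73, 9.13 and 4.64 FPKM in cesium (difference 3.12 ± 0.25), whereas HSP17.4 measured 20.3, 18.9 and 15.6 FPKM, and its difference of 0.05 ± 0.17 did not pass.

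**Figure D5:**
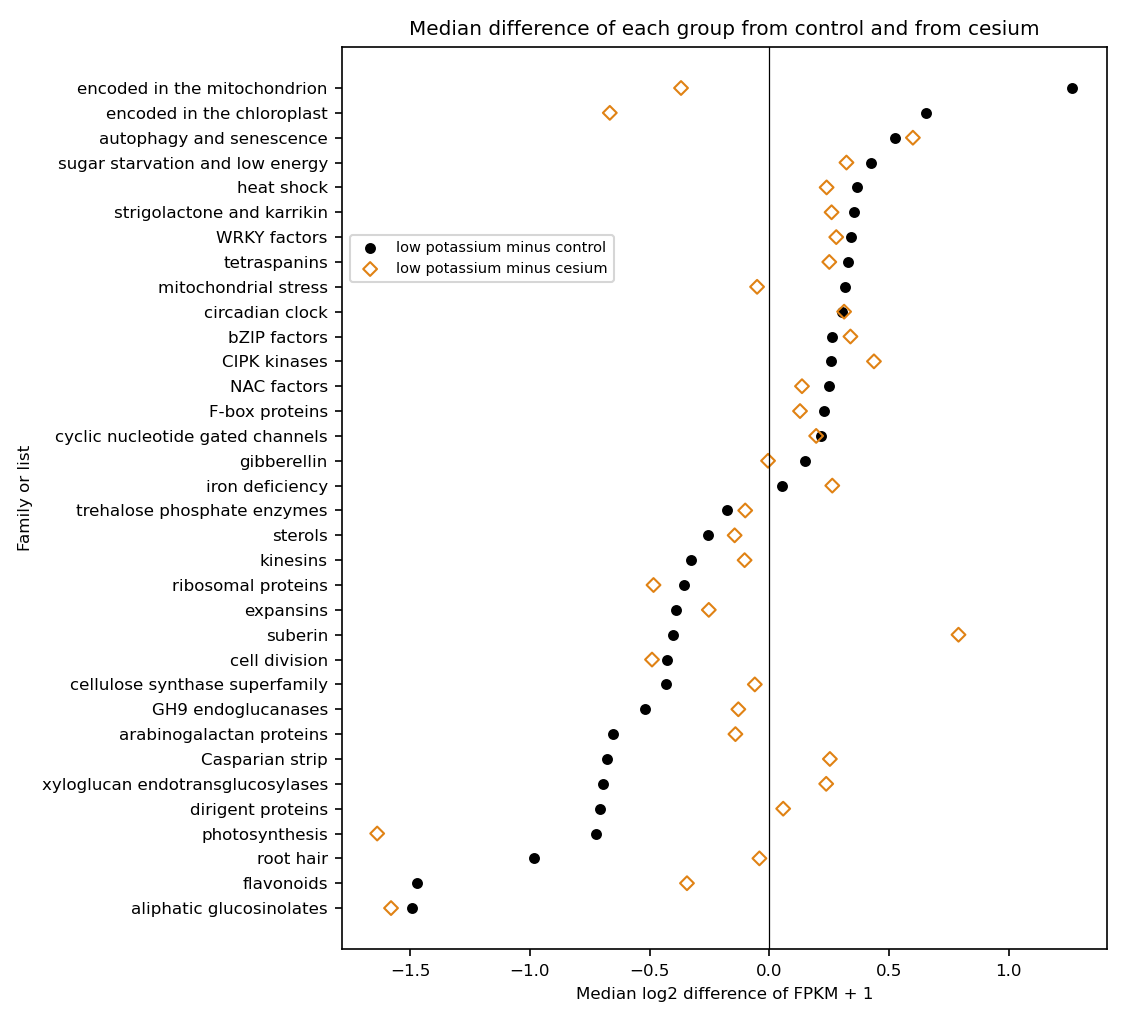
Median log2 difference of FPKM + 1 over the tested genes of each family or list, low potassium minus control as filled circles and low potassium minus cesium as open diamonds. Aliphatic glucosinolates lie at -1.49 and -1.58, whereas suberin lies at -0.40 against control and 0.79 against cesium, and root hair genes at -0.98 and -0.041.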

How the data were processed

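RNA of roots was sequenced in 9 strand-specific libraries, 3 per group. The authors deposited FPKM values per gene for each library and a table of the comparison with log2 fold changes, p-values and q-values. Per the submitters' processing notes, the tools were Cufflinks 2.2.1, STAR 2.5.0c and Bowtie2 2.3.4.1, and the build TAIR10, with no role stated. No per-sample columns were left unmapped (0).

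Groups came from the sample titles. Genes averaging 1 FPKM or more in the 6 libraries, with a valid estimate in each, were tested on log2(FPKM + 1) with limma 3.58.1 (eBayes with trend, R 4.3.3), with p-values adjusted by Benjamini-Hochberg over all tested genes and a threshold of 0.05. AT2G28290 and AT3G62290 were left out because the estimate failed in low potassium 2. Low potassium against cesium used a model on all 9 libraries. Tables were handled with Python 3.11.15, pandas 2.3.3 and numpy 2.4.6. Simulated data for low potassium against control held 19436 genes, of which 68, 66 and 66 were given log2 changes of 0.5, 1 and 2. Of these, 45.6%, 80.3% and 95.5% were called, with 9 unchanged genes called. Far fewer genes were changed there than were called in the real data, and adjusted p-values depend on that share. These rates are therefore not the power or error of the real comparison.

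Named genes were 15 per direction, those of largest change that passed, had groups apart and averaged 5 FPKM or more in whichever group was higher. From each described family or list, up to 3 genes per direction with the smallest adjusted p and the member of highest mean FPKM were added, and HAK5. Families were matched by symbol or product description, and of 1161 entries in the process lists 1088 could be matched. The members and lists were chosen with earlier results of these data known. After values were seen, KIN1, KIN2, KIN10 and KIN11 were removed from the kinesins, DIR1, a lipid transfer protein, from the dirigent proteins and 4 elongation factor genes from the ribosomal proteins, and mismatched symbols were corrected, among them the marker FDH. Alternatives covered the pseudocount, filter, scaling, libraries in the fit, replicate block, variance model, call rule, the authors' q-values and each library left out. The factors of median-ratio scaling lay between 0.997 and 1.01, so that alternative hardly differed from the main setting.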

Additional observations from a re-analysis of the deposited data

How the results depend on the processing

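Of the counts over all genes, only the call rule moved them past 1.5 times: with a log2 change of at least 1 required as well, 1218 genes were called against control and 967 against cesium. Leaving out 1 library gave 6278 to 7342 genes against control and 4770 to 6519 against cesium. The authors' deposited q-values called 5948 genes (2839 higher, 3109 lower), the fit on 9 libraries 7388 and the filter of 5 FPKM, which tests fewer genes, 7006. With the replicate block, 7218 genes were called against control and 6021 against cesium. Equal replicate numbers were not shown to pair the samples, since deviations of same-numbered control and low-potassium libraries correlated at -0.126, 0.179 and -0.0089. Among 230 named genes, 38 lost their call under at least 1 alternative, 25 with the authors' q-values, 26 when a library was left out and 16 under the block. Over the named genes 3476 alternative values stayed on the same side, 169 lost and 2 gained the call, and 1 changed sign: ATMG00660, not called at 0.27 ± 0.25, was at -0.024 without control 3 (adjusted p = 0.927) and between that and 0.424 over the libraries left out, and the cause was not tested. Under the log2 rule 14 of 16 aliphatic glucosinolate, 14 of 32 root hair, 5 of 20 autophagy and senescence and 1 of 286 ribosomal genes were called in the direction given above, as were 0 of 31 cell division genes, of which 27 passed limma's adjusted p alone. Absolute depth is unknown, so the precision of low values cannot be stated, and 53 genes were listed at 0 in 1 or 2 libraries of a group but above 5 FPKM in another of it.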

Other observations

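Further groups outside the described families had uneven counts in low-potassium roots. Hypoxia core genes had 8 of 14 tested members lower and 0 higher, with a median log2 change of -0.61. Zinc deficiency genes had 7 of 12 lower and 2 higher. Auxin genes had 18 of 32 tested members lower and 1 higher, with a median log2 change of -0.38. Genes of protein folding in the endoplasmic reticulum had 10 of 18 lower and 2 higher. Of 84 tested C1 domain proteins 41 fell and 10 rose. Of 54 genes matched as pectin lyase-like, a family that acts on wall pectin, 25 fell and 1 rose. The 1 that rose changed by 3.48, the value of PGIP1, which inhibits such enzymes and is not one of them. Among regulators, 109 of 275 RING and U-box ligases, which tag proteins for degradation, rose and 29 fell, and 13 of 33 GRAS factors rose and 2 fell. Of 227 tested genes that RefSeq classes as long noncoding RNA, 71 rose and 9 fell, and of 89 transcribed pseudogenes 30 rose and 7 fell. These groups were picked after their values were seen and have no test of their own.

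Some genes that passed lay side by side, and the runs given here were picked from a longer set. With 21.7% of all genes higher and 21.6% lower, neighbours can share a direction by chance. The number of runs was not set against that. On chromosome 3, 9 neighbouring tested genes from RGS1 to CYP71B34 (TAIR10, 9530595 to 9640918) rose, among them 4 of the CYP71B cytochrome P450 genes. On chromosome 1, 6 neighbours from MLP34 to MLP43 (26714866 to 26726652) rose, and on chromosome 2, 6 from AT2G05320 to GRP-3 (1935540 to 2027283), which include AT2G05510. Another 6 on chromosome 2 rose, from AT2G07774 to AT2G07638 (3303735 to 3378213). On chromosome 5, 7 neighbours around PSBO1 (26563964 to 26583756) fell. Reads shared between close copies were not tested.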
